A study of Mus musculus with 18 samples.

Results

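Foxp3 and the 4 Ikaros family genes Ikzf1, Ikzf2, Ikzf3 and Ikzf4 were followed across 18 RNA-seq libraries of sorted mouse regulatory T cells (Treg). They are 5 of the 23420 rows of the count table and were taken by gene name; the set was proposed with earlier results of these data known. The study compared 3 genotypes, FCre x C1+/+, FCre x C1fl/+ and FCre x C1fl/fl, written here as +/+, fl/+ and fl/fl, in 2 states, resting and effector, with 3 libraries in each of the 6 groups. Every group carries FCre, including the +/+ controls, and no group without it was analysed here. The labels do not spell FCre or C1 out. The series title speaks of the CBM signalosome, the complex that carries antigen receptor signals to NF-kB. Cre alleles used for Treg in the field are often placed in the Foxp3 locus itself, and whether that holds here, and whether transcripts of such an allele are counted in the Foxp3 row, is not given in the sources used here. Age, sex and the gates of the sort are not given either. Nothing in the labels says that replicates came from separate animals, so each p-value measures the spread between these libraries, which may be technical.

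Foxp3 is the forkhead transcription factor that defines the Treg lineage; it keeps genes of suppression on and genes of conventional T cells down. The Ikaros family are zinc finger transcription factors that bind DNA at a GGGAA core and pair with each other through zinc fingers at the C terminus. Ikzf1 encodes Ikaros, a regulator of lymphocyte development, Ikzf2 Helios, which is found in most thymus-derived Treg and supports their stability, Ikzf3 Aiolos, which is prominent in B cells and activated T cells, and Ikzf4 Eos, a corepressor partner of Foxp3. Ikaros and Aiolos are the proteins that drugs of the thalidomide class send to the cereblon ubiquitin ligase.

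In mm10 coordinates of the GENCODE annotation, Foxp3 lies on chromosome X (7573644 to 7595245, plus strand), Ikzf1 on chromosome 11 (11685003 to 11772926, plus strand), Ikzf2 on chromosome 1 (69531214 to 69687245, minus strand), Ikzf3 on chromosome 11 (98464902 to 98546031, minus strand) and Ikzf4 on chromosome 10 (128630843 to 128645991, minus strand). RefSeq start sites of the same build (GRCm38.p6) matched 2 of the 5 genes, Foxp3 and Ikzf1, with a pair of start sites each. The 250 bases before the downstream start of each are shown because the family reads a short DNA core, GGGAA, which reads TTCCC on the opposite strand; its copies are in capitals.
Foxp3, chrX:7580233-7580482, plus strand: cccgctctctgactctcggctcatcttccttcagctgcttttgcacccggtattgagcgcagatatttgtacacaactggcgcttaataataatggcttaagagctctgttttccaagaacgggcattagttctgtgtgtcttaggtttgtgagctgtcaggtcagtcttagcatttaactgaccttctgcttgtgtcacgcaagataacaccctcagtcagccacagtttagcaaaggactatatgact
Ikzf1, chr11:11689927-11690176, plus strand: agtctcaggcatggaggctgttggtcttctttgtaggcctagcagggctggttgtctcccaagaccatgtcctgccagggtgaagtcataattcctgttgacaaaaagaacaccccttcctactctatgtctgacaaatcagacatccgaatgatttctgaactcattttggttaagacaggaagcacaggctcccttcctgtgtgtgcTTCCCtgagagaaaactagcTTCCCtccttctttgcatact
The Ikzf1 window shown holds 2 copies of the core and the Foxp3 window none; the windows before the upstream start of Ikzf1 (chromosome 11, 11685675 to 11685924) and of Foxp3 (chromosome X, 7579426 to 7579675) hold none. The core is common: 56.2% of 32851 such windows of mouse genes hold it on either strand. A match in these letters is a description and not a binding site.

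The libraries held 1658073 to 5756903 expected counts (median 3154386.5), and the 5 genes had at least 286 counts in every library, so none was lost to a filter on low counts. All 8 genes of a T cell marker list were detected, with summed levels of 4486 to 5177 CPM (counts scaled to library size, here by the TMM method) in the 18 libraries. The 8 genes of a Treg list, which includes Foxp3, Ikzf2 and Ikzf4, summed to 1823 to 3266 CPM, so the labelled cell type carried its defining markers in every library. Among markers of other cells, the red cell sum was at most 1.69 CPM, the dendritic cell sum at most 9.08 and the plasma cell sum at most 31.2. The 6 CD8 T and NK cell genes summed to 16.2 to 43.3 CPM. The 8 myeloid genes summed to 64.5 to 103 CPM and the 10 B cell genes to 11.9 to 118 CPM. The part of such cells in the levels of the 5 genes was not tested. In bulk RNA, fewer cells with a transcript and less of it per cell cannot be told apart.

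Compared per transcript length, as deposited FPKM (fragments scaled to transcript length and library size), the group means of the 5 genes lay between 20.7 and 92.1. The group means ran from 67.0 to 92.1 FPKM for Foxp3, from 45.4 to 80.9 for Ikzf3, from 42.5 to 61.5 for Ikzf4, from 41.2 to 63.8 for Ikzf1 and from 20.7 to 57.4 for Ikzf2. Ikzf2 thus covered the widest range across groups, with its lowest mean in fl/fl resting and its highest in +/+ effector Treg.

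**Figure D1:**
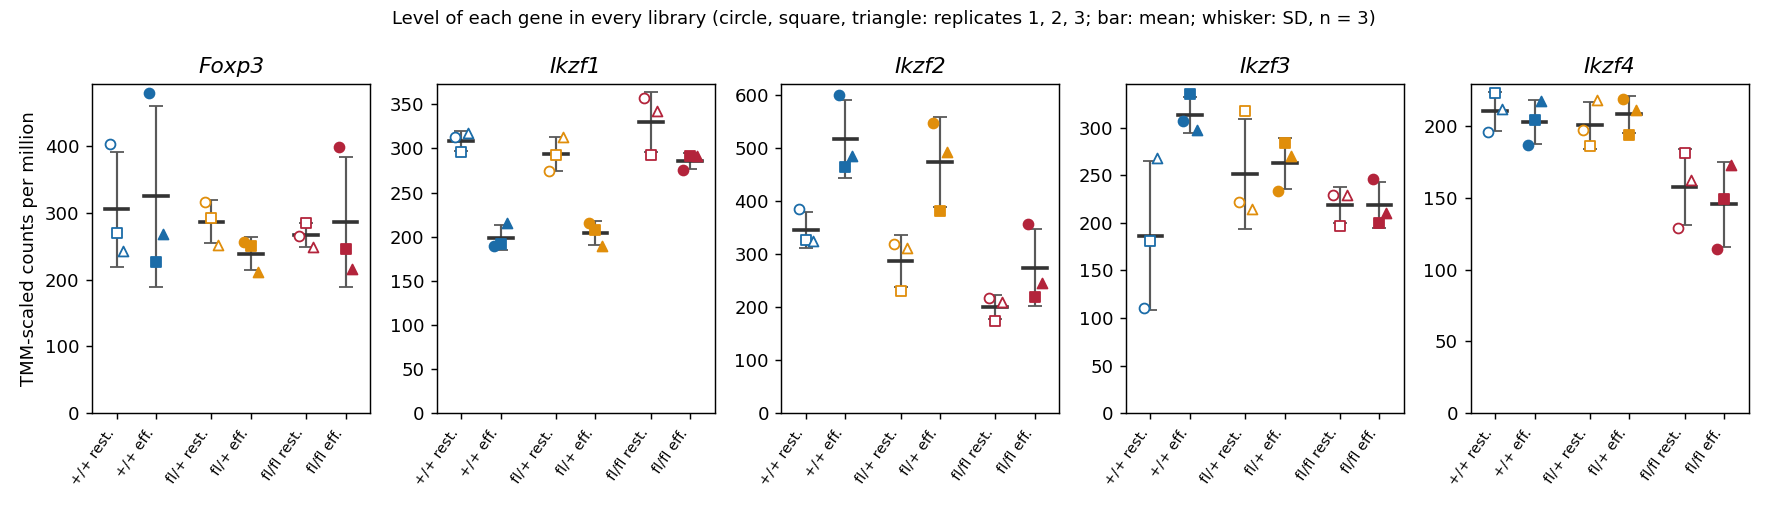
Each panel plots one gene in TMM-scaled CPM for the 6 groups (open points, resting; filled points, effector; circle, square and triangle, replicates 1, 2 and 3; bar, mean; whisker, SD, n = 3). Ikzf1 sits lower in effector than in resting libraries, Ikzf2 sits higher in effector and lower in fl/fl, Ikzf4 is lowest in both fl/fl groups, and the Foxp3 groups all overlap.

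Differences were tested with edgeR's quasi-likelihood test over 10630 genes and a gene was called where its p, adjusted by Benjamini-Hochberg over these genes, lay under 0.05. Between effector and resting Treg, 3 of the 5 genes were called in +/+ (Ikzf2 and Ikzf3 higher, Ikzf1 lower), where 16.0% of all genes tested were called. In fl/+ 2 of the 5 were called (Ikzf2 higher, Ikzf1 lower) against 16.3% of all genes. In fl/fl none of the 5 was called against 6.34% of all genes, and DESeq2 also called none. There 2 of the 5 had an unadjusted p under 0.05 by edgeR, as had 2027 of all 10630 genes. For the mean of the 3 genotypes 2 of the 5 were called (Ikzf2 higher, Ikzf1 lower) against 32.9% of all genes.

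Between genotypes, effector fl/fl less +/+ gave 2 of the 5 called (Ikzf1 higher, Ikzf2 lower) against 2.81% of all genes, and effector fl/fl less fl/+ gave the same pair of genes in the same directions against 0.677%. Resting fl/fl less +/+ gave 1 of the 5 (Ikzf2 lower) against 0.696%. Resting fl/+ less +/+ (0.0847% of all genes), resting fl/fl less fl/+ (0.0282%) and effector fl/+ less +/+ (0.00941%) gave none of the 5 by edgeR or DESeq2. In that order, 1, 2 and none of the 5 had an unadjusted p under 0.05 by edgeR. Of all 10630 genes, 669, 513 and 581 did. The genotype comparisons share groups, so they are not independent of each other.

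Foxp3 was not called in any of the 12 comparisons, by edgeR or DESeq2, and had no unadjusted p under 0.05. In +/+ it stood at 403, 269.6 and 243 CPM in the resting libraries 1, 2 and 3, and at 479, 226 and 269 CPM in the effector libraries. In fl/+ it stood at 317, 292 and 252 CPM resting and at 256, 250.3 and 211 CPM effector. In fl/fl it stood at 265, 285 and 249 CPM resting and at 398, 246 and 216 CPM effector.
The high values were those of replicate 1 in both +/+ groups and in effector fl/fl, and each pair of groups overlapped. The coefficient of variation reached 41.7% in +/+ effector Treg and was 6.84% in fl/fl resting Treg. In order of their means the groups ran from +/+ effector (325 CPM) through +/+ resting (305), fl/+ resting (287), fl/fl effector (287) and fl/fl resting (266) to fl/+ effector (239), and every neighbour in this order overlapped with the next.
The effector less resting difference, on the log2 scale, was 0.10 in +/+ (95% interval -0.40 to 0.59), -0.27 in fl/+ (-0.76 to 0.23) and 0.12 in fl/fl (-0.38 to 0.62). For the mean of the 3 genotypes it was -0.02 (SE 0.14, 95% interval -0.30 to 0.27, adjusted p = 0.944 by edgeR). Of the 9 pairs of libraries that share genotype and replicate number, 3 were higher in the effector state.
The fl/fl less +/+ difference of Foxp3 was -0.20 in resting Treg (-0.70 to 0.29) and -0.18 in effector Treg (-0.67 to 0.32). The lowest unadjusted p of Foxp3 was 0.0705, for effector fl/+ less +/+ (-0.45, SE 0.24, adjusted p = 0.928 by edgeR). That difference was -0.11 without the libraries numbered 1. Without the same libraries the mean state difference was -0.15 (adjusted p = 0.202 by edgeR).

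The Foxp3 count shares sequence with a neighbour. The last exons of Foxp3 and of Ccdc22, a gene of endosomal sorting on the opposite strand, overlap at X 7593809 to 7595055, over 590 of the 4577 exon bases of Foxp3. The Foxp3 count was not a whole number in 18 of 18 libraries, and the strand setting of the counting is not given, so reads of the overlap cannot be told apart. Ccdc22 had group means of 60.0 to 67.4 CPM in resting and 33.5 to 39.4 CPM in effector Treg, with no overlap between the states. With both rows summed, the mean state difference was -0.14 (adjusted p = 0.411 by edgeR), and again no comparison was called.

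Ikzf2 (Helios) rose in effector Treg and was lower in fl/fl Treg of both states. In +/+ it stood at 385, 327 and 324 CPM in the resting libraries and at 599.7, 464 and 485 CPM in the effector libraries. In fl/+ it stood at 318, 229.8 and 310.4 CPM resting and at 547, 381 and 493 CPM effector. In fl/fl it stood at 217, 174 and 209 CPM resting and at 356, 219.7 and 246 CPM effector.
In each genotype all effector libraries lay above all resting ones, as did 16.6% of all genes tested in +/+, 18% in fl/+ and 11.7% in fl/fl, and the effector value was higher in 9 of 9 pairs, by 0.23 to 0.78 on the log2 scale. The highest fl/fl resting library lay below the lowest resting library of +/+ (as in 5.43% of all genes) and of fl/+ (4.68%). The highest fl/fl effector library likewise lay below the lowest effector library of +/+ (10.2% of all genes) and of fl/+ (8.44%). In resting Treg the fl/+ libraries also lay below the +/+ ones, as did 4.92% of all genes.
Effector less resting was 0.58 in +/+ (SE 0.17, adjusted p = 0.0223 by edgeR) and 0.73 in fl/+ (SE 0.17, adjusted p = 0.00499 by edgeR), 1.49-fold and 1.66-fold. In fl/fl it was 0.46 (SE 0.17, adjusted p = 0.131 by edgeR), which did not pass; with the replicate block it was 0.44 (adjusted p = 0.00343). The state change in fl/fl less that in +/+ was -0.12 (95% interval -0.62 to 0.38, adjusted p = 0.932 by edgeR), so a difference between the changes was not detectable. The +/+ call was lost without +/+ effector replicate 1 (0.45, adjusted p = 0.122), +/+ resting replicate 2 (0.56, adjusted p = 0.0713) or +/+ resting replicate 3 (0.53, adjusted p = 0.0765).

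Between genotypes, Ikzf2 fell in fl/fl by 0.79 in resting Treg (SE 0.17, adjusted p = 0.0336 by edgeR; 200.1 ± 23.1 against 346 ± 34.4 CPM, SD, n = 3). In effector Treg it fell by 0.91 (SE 0.17, adjusted p = 0.0078 by edgeR; 274 ± 72.3 against 516 ± 73.1 CPM). Against fl/+ it fell by 0.78 in effector Treg (adjusted p = 0.0365 by edgeR), and the resting value of -0.52 did not pass (unadjusted p = 0.00715, adjusted p = 0.884 by edgeR). The fl/+ groups stood at -0.27 (resting) and -0.13 (effector) against +/+, neither called.
These calls sat near the threshold. In resting Treg the fl/fl less +/+ value was -0.70 to -0.83 without +/+ replicate 1 or 2 or without fl/fl replicate 2 or 3, with adjusted p from 0.0997 to 0.227. In effector Treg it was -0.78 (adjusted p = 0.0729) without +/+ replicate 1 and -0.77 (adjusted p = 0.0781) without fl/fl replicate 2. The call against fl/+ in effector Treg was lost without fl/+ replicate 1 or 3 or fl/fl replicate 2 or 3, with values of -0.65 to -0.76, and with only the groups compared in the fit (-0.79, adjusted p = 0.117 by edgeR). On log2(FPKM + 1) it did not pass either (-0.80, adjusted p = 0.0769 by limma), nor did the resting call against +/+ (-0.77, adjusted p = 0.0992 by limma).

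Ikzf4 (Eos) did not pass in any of the 12 comparisons by edgeR, with an unadjusted p under 0.05 in 4, all of them fl/fl against another genotype. In these 4 comparisons 513 to 1834 of all 10630 genes had such a p. DESeq2 called Ikzf4 in 2 of the 4. In +/+ it stood at 196, 223 and 212 CPM resting and at 187, 204 and 217 CPM effector. In fl/+ it stood at 197, 186 and 218 CPM resting and at 219, 194 and 211 CPM effector. In fl/fl it stood at 129, 181 and 162 CPM resting and at 114, 149 and 173 CPM effector.
In both states every fl/fl library lay below every library of +/+ and of fl/+. The shares of all genes that did so are those given for Ikzf2.
The fl/fl less +/+ difference was -0.42 in resting Treg (SE 0.13, adjusted p = 0.244 by edgeR) and -0.50 in effector Treg (SE 0.14, adjusted p = 0.0523 by edgeR, 0.0175 by DESeq2). Against fl/+ in effector Treg it was -0.54 (SE 0.13, adjusted p = 0.0677 by edgeR, 0.0152 by DESeq2). Effector less resting was -0.05 in +/+ (95% interval -0.33 to 0.23), 0.06 in fl/+ (-0.22 to 0.33) and -0.13 in fl/fl (-0.41 to 0.15), and the groups of the states overlapped in each genotype.

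Ikzf1 (Ikaros) fell in effector Treg of +/+ and fl/+ and was higher in effector fl/fl Treg than in the other effector groups. In +/+ it stood at 313, 296 and 317 CPM resting and at 189.7, 192 and 215 CPM effector. In fl/+ it stood at 274, 293 and 313 CPM resting and at 215, 208 and 189 CPM effector. In fl/fl it stood at 357, 292 and 342 CPM resting and at 275, 291 and 291 CPM effector.
The effector libraries lay below the resting ones in each genotype, as did 15.7% of all genes in +/+, 16.1% in fl/+ and 9.97% in fl/fl. In fl/fl the lowest resting (292 CPM) and the highest effector libraries (291 CPM) nearly met. The effector value was higher in 0 of 9 pairs, with pair differences of -0.72 to -0.01.
Ikzf1 fell by 0.63 in +/+ (SE 0.09, adjusted p = 9.22e-05 by edgeR) and by 0.52 in fl/+ (SE 0.09, adjusted p = 0.000499 by edgeR). In fl/fl the value was -0.21 (SE 0.09, adjusted p = 0.19 by edgeR), which did not pass. The change in fl/fl less that in +/+ was 0.42 (SE 0.13, unadjusted p = 0.00397, adjusted p = 0.357 by edgeR). That test of the difference called 0.0% of all genes by edgeR, with 953 of 10630 at an unadjusted p under 0.05 and 15 called by DESeq2, so Ikzf1 is not shown to respond differently to state in fl/fl.
In effector Treg Ikzf1 was higher in fl/fl than in +/+ by 0.52 (SE 0.09, adjusted p = 0.00577 by edgeR; 285 ± 9.2 against 199 ± 14.0 CPM, SD, n = 3) and higher than in fl/+ by 0.48 (SE 0.09, adjusted p = 0.0257 by edgeR). All effector fl/fl libraries lay above those of the other genotypes, as did 10.3% of all genes against +/+ and 7.81% against fl/+. Without +/+ effector replicate 1 the first of these was 0.48 (adjusted p = 0.062). The second was lost without fl/+ effector replicate 1 or 3 or fl/fl effector replicate 2 or 3, with values of 0.43 to 0.52 and adjusted p up to 0.201. It was also lost with only the groups compared in the fit (0.47, adjusted p = 0.0964 by edgeR) and on log2(FPKM + 1) (0.47, adjusted p = 0.053 by limma) and log2(FPKM + 0.1) (0.48, adjusted p = 0.0883 by limma). In resting Treg the fl/fl less +/+ value was 0.10 (95% interval -0.09 to 0.29), and the groups overlapped.

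Ikzf3 (Aiolos) rose with the effector state in +/+ and was not called in any other comparison. In +/+ it stood at 111, 181 and 268 CPM resting and at 307, 335 and 298 CPM effector. In fl/+ it stood at 222, 318 and 215 CPM resting and at 233, 284 and 270.4 CPM effector. In fl/fl it stood at 229, 197 and 229.7 CPM resting and at 246, 199.6 and 210.4 CPM effector.
The +/+ resting libraries were spread most, with a coefficient of variation of 42.2% against 6.05% in +/+ effector Treg. The states overlapped in fl/+ and fl/fl, while in +/+ they did not, the effector libraries being higher, as in 16.6% of all genes.
Effector less resting was 0.75 in +/+ (SE 0.21, adjusted p = 0.0155 by edgeR), 0.06 in fl/+ (95% interval -0.36 to 0.48) and 0.00 in fl/fl (-0.43 to 0.43). The +/+ value was 0.48 (adjusted p = 0.0751) without +/+ resting replicate 1, 0.71 (adjusted p = 0.0518) without +/+ effector replicate 2 and 1.11 (adjusted p = 0.000619) without +/+ resting replicate 3. The change in fl/fl less that in +/+ was -0.75 (unadjusted p = 0.0184, adjusted p = 0.463 by edgeR), and in fl/+ less +/+ -0.69 (unadjusted p = 0.0267, adjusted p = 1.0 by edgeR), a test that called none of the 5 members and 0.0188% of all genes. For the mean of the 3 genotypes the state difference was 0.27 (adjusted p = 0.0852 by edgeR), and with the replicate block 0.30 (adjusted p = 0.0108).
The effector fl/+ libraries lay below the effector +/+ libraries with no overlap (-0.26, adjusted p = 0.95 by edgeR), as did 5.88% of all genes, and so did the effector fl/fl libraries (-0.51, SE 0.21, adjusted p = 0.188 by edgeR), as did 10.2% of all genes. Ikzf3 is a B cell gene too, and the 10 listed B cell markers, all present in the table, summed to 11.9, 19.3 and 118 CPM in the +/+ resting libraries 1, 2 and 3, in the order of their Ikzf3 values. In fl/+ resting Treg the sums were 14.3, 23.0 and 71.6 CPM, and the library with the highest sum had the lowest Ikzf3 value. In +/+ effector Treg they were 43.9, 42.2 and 34.3 CPM, with Ebf1 and Pax5 at 0. They were 25.4, 31.8 and 57.8 CPM in fl/+ effector, 20.0, 27.6 and 24.9 in fl/fl resting and 34.2, 20.6 and 18.1 in fl/fl effector Treg. The order of the sums was that of the Ikzf3 values in +/+ resting Treg and in none of the other 5 groups. The part of B cell RNA in the Ikzf3 level was not tested.

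**Figure D2:**
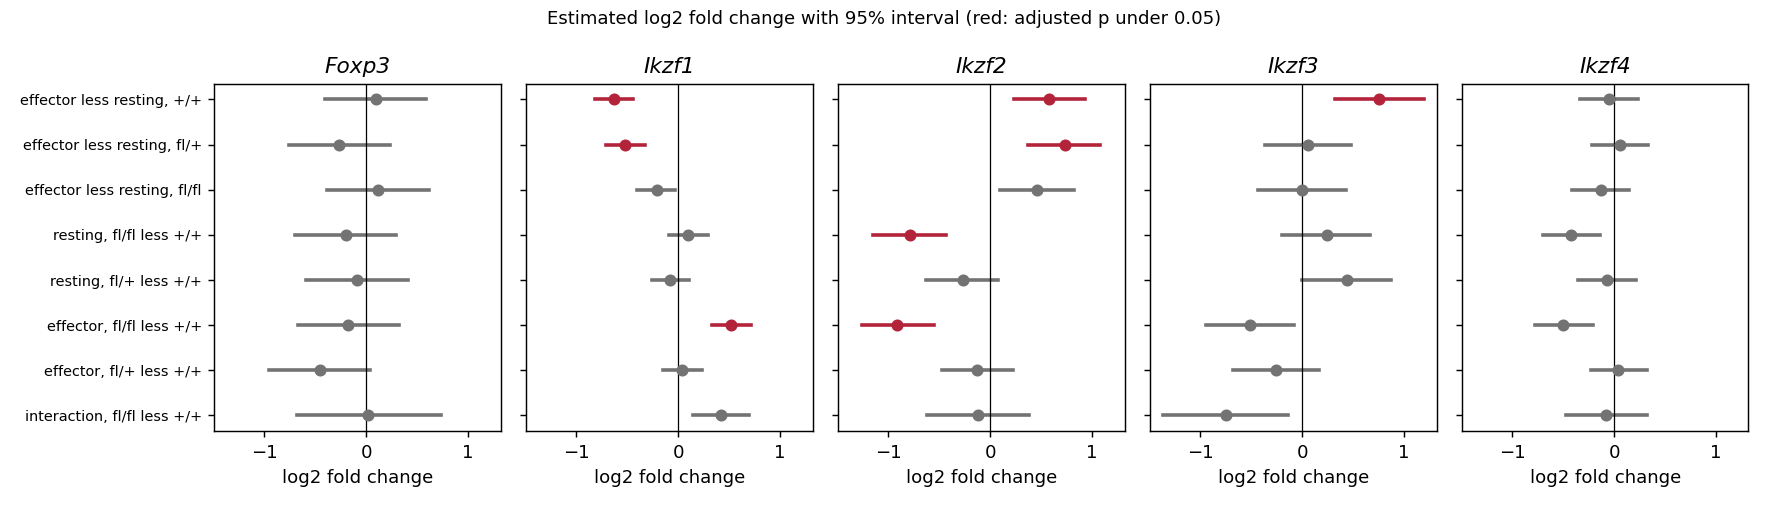
Each point is an estimated log2 fold change of one gene (panels) in one comparison (rows), with its 95% interval; red marks an adjusted p under 0.05 in edgeR. The estimates of Ikzf1 and Ikzf2 have opposite signs for state and for fl/fl in effector Treg, and all Foxp3 intervals span 0.

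The make-up of the family changed between the states. Each gene's share was taken of the summed FPKM of Ikzf1 to Ikzf4 in a library, a value that does not depend on the scaling between libraries, and compared over the 9 pairs with an exact two-sided sign-flip permutation test, adjusted over 5 values (the smallest p of 9 pairs is 0.00391). Ikzf2 gained 6.3 percentage points in effector libraries (SD 2.5, higher in 9 of 9 pairs, adjusted p = 0.00977, exact test). Ikzf1 fell by 8.69 points (SD 5.06, higher in 1 of 9 pairs, adjusted p = 0.013, exact test). The shares of a library add to a fixed total, so a lower share of one gene raises the others, and their tests are not independent. Ikzf3 stood at 4.24 points (SD 7.27, adjusted p = 0.161, exact test) and Ikzf4 at -1.85 points (SD 3.41, adjusted p = 0.172, exact test), and neither passed.
By genotype, the Ikzf1 share was 30.1% ± 2.78 resting and 17.2% ± 1.21 effector in +/+ (SD, n = 3), 28.0% ± 1.35 and 18.8% ± 1.36 in fl/+, and 35.3% ± 2.52 and 31.3% ± 1.98 in fl/fl. The Ikzf1 shares of effector fl/fl (29.3% to 33.3%) and resting +/+ Treg (28.1% to 33.3%) overlapped. The Ikzf2 share was 18.2% ± 3.4 and 23.9% ± 3.26 in +/+, 14.7% ± 2.88 and 23.4% ± 3.43 in fl/+, and 11.4% ± 0.923 and 16.0% ± 3.8 in fl/fl. The shares were not tested between genotypes.
The log2 ratio of Ikzf2 to Foxp3 FPKM was higher in the effector library in 9 of 9 pairs, by 0.63 on average (SD 0.32, adjusted p = 0.00977, exact test). Its group means rose from -1.14 to -0.609 in +/+, from -1.36 to -0.371 in fl/+ and from -1.76 to -1.4 in fl/fl.

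**Figure D3:**
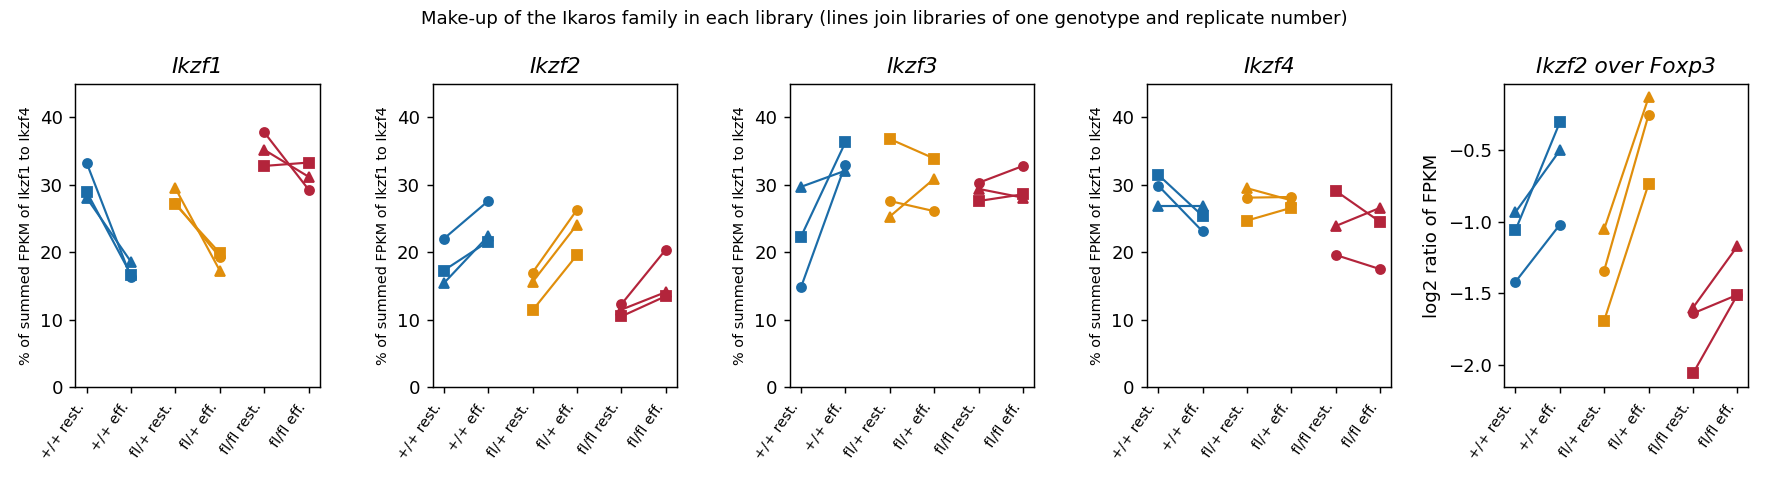
The first 4 panels plot each gene's percent of the summed FPKM of Ikzf1 to Ikzf4, and the last the log2 ratio of Ikzf2 to Foxp3 FPKM; lines join the resting and effector libraries of one genotype and replicate number. The Ikzf2 share and the ratio go up in all 9 pairs, and the Ikzf1 share goes down in 8 of them.

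Among the 9 effector libraries, the fl/fl libraries stood apart from the rest for both Ikzf1 and Ikzf2, so no pooled correlation of these genes is given, and 3 libraries of a genotype are too few to test one. Over the 20 relations among the 5 genes within a state, none of those with Foxp3 passed in either state.

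The genes whose log2 CPM followed each member most closely over the 18 libraries were picked by Pearson's r among 8785 genes, as a description without a test, over libraries that differ in state, genotype and depth. For Ikzf2 they were Myo1e (r = 0.95), Slc26a2 (0.93) and Rabgap1l (0.92). Myo1e, a membrane myosin, ran from 15.4 to 62.5 CPM over the group means and followed Ikzf2 within the resting (0.92) and the effector libraries (0.96). For Ikzf1 they were Acss2 (0.96), Add1 (0.95) and Lef1 (0.95), the last a transcription factor of resting T cells that ran from 156 to 534 CPM. Within the resting libraries alone Lef1 followed Ikzf1 less closely (0.53) than within the effector libraries (0.94). These values within a state, like those of Myo1e, pool 3 genotypes. In effector Treg Lef1 stood at 326 CPM in fl/fl against 188 in fl/+ and 156 in +/+, and Ikzf1 was also higher in fl/fl. The value of 0.94 can therefore not be told apart from that gap between genotypes. For Ikzf3 they were Tmem191c (0.88), Rnf10 (0.83) and Dqx1 (0.81), and for Ikzf4 Zmiz2 (0.83), B3gnt3 (0.75) and Socs3 (0.74).
For Foxp3 the closest were Fam120b (0.86), Gtf2a1 (0.83) and Anp32a (0.76). Fam120b ran only from 127 to 142 CPM over the group means, so this likeness is one of libraries within groups more than of groups.

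Of 18 genes listed as activated by Foxp3, 11 rose and 1 fell with the effector state in +/+ (median 0.78, against -0.01 for all genes tested), while the Foxp3 level itself was not called. The same counts were found in fl/+ (median 0.77), and in fl/fl 8 rose and none fell (median 0.52; the 1 that fell in the other genotypes, Ecm1, was not called). In +/+ the integrin Itgae rose by 3.88 (SE 0.66), the enkephalin precursor Penk by 3.55 (SE 0.51), Plagl1 by 1.80 (SE 0.61) and the adenosine-forming ectoenzyme Nt5e by 1.65 (SE 0.22), and the matrix protein gene Ecm1 fell by 1.47 (SE 0.22). The IL-2 receptor chain Il2ra was at -0.10 (adjusted p = 0.708 by edgeR). Over all genes tested, 16.0% were called either way with state in +/+, 16.3% in fl/+ and 6.34% in fl/fl.
In effector fl/fl against +/+, 5 of the 18 fell and 1 rose (median -0.45, against 0.01 for all genes, of which 2.81% were called either way). The inhibitory receptor Ctla4 fell by 1.31 (163 against 407 CPM, adjusted p = 0.00425 by edgeR), the ectoenzyme Entpd1 by 1.11, Nt5e by 0.92, the semaphorin receptor Nrp1 by 0.82 and the actin-capping gene Capg by 0.76, and Ecm1 rose by 1.09. In resting fl/fl against +/+, Entpd1 fell (-1.12, 15.7 against 33.9 CPM, adjusted p = 0.0448 by edgeR), and the other 17 were not called. Of all genes, 0.696% were called in that comparison. The fl/+ against +/+ comparison gave none of the 18 in either state, against 0.0847% of all genes in resting and 0.00941% in effector Treg.

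Of 13 genes listed as repressed by Foxp3, 10 were tested, with a median state change of -0.42 in +/+, against -0.01 for all genes. Of all genes, 16.0% were called either way with state in +/+. With the effector state 3 rose and 3 fell in +/+: the survival gene Bcl2 (-1.42) and the transcription factors Satb1 (-1.97) and Lef1 (-1.48) fell, and the cytokine Ifng (2.78), the phosphatase Ptpn22 (1.05) and the kinase Zap70 (0.64) rose. In effector fl/fl against +/+, 4 rose and none fell (median 0.23, against 0.01 for all genes, of which 2.81% were called either way). Those were the cAMP-degrading enzyme Pde3b (2.63, 14.0 against 1.99 CPM), Satb1 (1.27), Lef1 (1.06) and Bcl2 (0.78). No gene of the list was called between genotypes in resting Treg, where 0.0282% to 0.696% of all genes were called in a comparison. The members of these lists were chosen with results of these samples known, so their direction is not independent evidence about Foxp3.

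**Figure D4:**
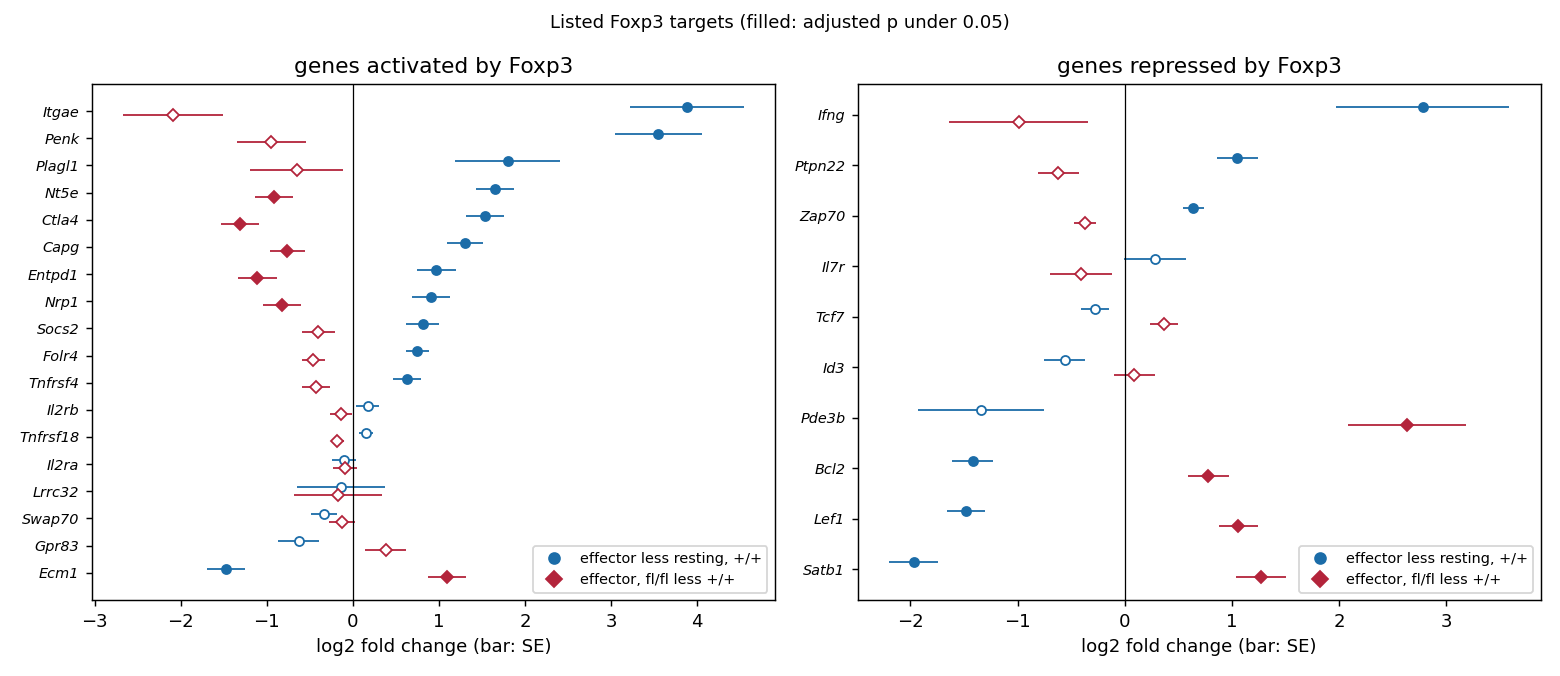
Log2 fold changes (bar, SE) of the tested genes listed as activated (left) and repressed (right) by Foxp3, for effector less resting in +/+ (circles) and effector fl/fl less +/+ (diamonds); filled symbols passed an adjusted p of 0.05 in edgeR. All 5 activated genes that fell in effector fl/fl are among the 11 that rose with the effector state in +/+, and Ecm1, Satb1, Lef1 and Bcl2 move the opposite way.

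Those 2 comparisons share the +/+ effector libraries, which sit on the first side of the state comparison and the second side of the genotype comparison, so opposite signs in them are not independent.

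Other cells and states moved with the same comparison. In effector Treg the 8 resting Treg markers summed to 1247 to 2115 CPM in +/+, 1456 to 2175 in fl/+ and 2385 to 3356 in fl/fl. The 10 effector Treg markers summed to 1167 to 2033, 1014 to 1421 and 336 to 1015 CPM. The 7 conventional CD4 T cell markers summed to 1157 to 1678, 1244 to 1629.9 and 1836 to 2500.3 CPM, with none at 0 in these groups. The 15 cell cycle markers summed to 482 to 861, 667 to 879.7 and 899 to 1162 CPM. The part of these marker levels in the Ikzf1, Ikzf2 and Foxp3 target differences of effector fl/fl Treg was not tested. In resting Treg, where Ikzf2 also fell, the resting Treg sum was 3858 to 4218 CPM in +/+ and 4317 to 4433 in fl/fl, and the conventional CD4 sum was 2696 to 2775 and 2798 to 2928 CPM.

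Of 19 transcription factors and enzymes known as partners of Foxp3, 7 rose and 2 fell with the effector state in +/+, 5 rose and 3 fell in fl/+, and 2 rose and 2 fell in fl/fl. Their medians were 0.19, 0.09 and -0.07, against -0.01 for all genes in each genotype. Over all genes tested, 16.0%, 16.3% and 6.34% were called either way in these comparisons, and 2.81% in effector fl/fl less +/+. The counts of the lists that follow stand beside the same shares. Irf4, which drives effector Treg, rose by 1.53 in +/+ (103 against 35.0 CPM), and it also rose in fl/+ and fl/fl. In effector fl/fl against +/+, Nfatc1, an antigen receptor-driven factor, fell by 0.78, and Satb1 and Lef1 rose. Of 14 tested regulators of Foxp3 transcription, none rose and 3 fell in +/+: Smad2 (-0.53), the row Mll2, which RefSeq lists as an older name of the histone methyltransferase gene Kmt2d (-0.45), and Stat5a (-0.40). Mll2 also fell in fl/+ (-0.57) and fl/fl (-0.37), and none of the 14 was called between genotypes.
Of 9 genes of DNA methylation, the process that marks stable Foxp3 expression by its loss at the locus, 1 rose and 2 fell with the effector state in +/+, and 1 each way in fl/+ and fl/fl. The demethylase Tet3 fell with the effector state in +/+ (-0.78), fl/+ (-0.65) and fl/fl (-0.47), and Uhrf1, which guides maintenance methylation in dividing cells, rose in all of them (1.23, 1.89 and 2.47). In +/+ the demethylase Tet1 also fell (-0.87). In effector fl/fl against +/+, Uhrf1 (0.86), the maintenance methyltransferase Dnmt1 (0.46) and Tet3 (0.46) were higher. The cell cycle sums above moved with the Uhrf1 and Dnmt1 values, and their part was not tested. Of 8 tested genes of Foxp3 protein turnover, Cdk2 fell in +/+ (-0.55), and no other was called within a genotype or between genotypes.

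Of 16 corepressor genes through which Ikaros proteins act, none was called with state in +/+ or fl/fl, and Gatad2a (0.59) and Rbbp7 (0.26) rose in fl/+. The shares of all genes called with state were 16.0% in +/+, 6.34% in fl/fl and 16.3% in fl/+. Gatad2a was higher in resting fl/fl than in +/+ (0.66, 104 against 65.5 CPM). Of the 5 genes of the cereblon ligase, Cul4b rose in fl/+ (0.57) and no other was called within a genotype or between genotypes. Among relatives of the members, Foxp1, a forkhead factor of resting T cells, fell with the effector state in +/+ (-0.63), fl/+ (-0.49) and fl/fl (-0.41). Ikzf5, the Pegasus gene of the family, fell in fl/+ (-0.43, 23.1 against 31.2 CPM).
Of 9 genes described as repressed by Ikaros or Helios, 5 were tested. With the effector state 3 rose in +/+, and 2 in fl/+ and in fl/fl (medians 0.68, 0.03 and -0.06, against -0.01 for all genes). In +/+ these were the Th1 factor Tbx21 (3.61), Ifng (2.78, 4.88 against 0.695 CPM) and Dtx1 (0.68), a regulator of Notch signals and T cell anergy. In resting Treg, Dtx1 was higher in fl/fl (1.19, 129 against 56.8 CPM, adjusted p = 0.00916 by edgeR) and in fl/+ (1.27, 136 against 56.8 CPM, adjusted p = 0.00995 by edgeR) than in +/+.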

How the data were processed

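RNA was sequenced from sorted Treg, lysed in TCL buffer, per the labels' protocols. The authors deposited expected counts and FPKM per gene symbol; bcl2fastq 2.17.1.14, STAR 2.6.0, RSEM 1.2.8 and mm10 appear in the submitters' processing notes. No source used here gives the annotation or strand setting. Of the nonzero deposited expected counts 29.4% were not whole, and all were rounded. The row of the targeted gene is not reported here.

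edgeR 4.0.16 (R 4.3.3) fitted 6 group means over 18 libraries after TMM scaling and filterByExpr (10630 of 23420 genes; common dispersion 0.0215), with quasi-likelihood F tests and Benjamini-Hochberg adjustment over all genes tested. The procedure was tested on simulated data. Limma 3.58.1 (on log2(FPKM + 1) and log2(FPKM + 0.1)) and DESeq2 1.42.0 were alternatives. CPM are TMM-scaled. The members and gene lists were chosen with earlier results of these data known. Named genes were the 5 members, for each the 3 genes with the highest r (mean of at least 5 CPM), and up to 4 called genes each way per list, with Il2ra, Capg and others of lists named in full added after values were seen.

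The batch number in the labels equals the replicate number. Libraries of the same genotype and number but other state deviated together in 9 of 9 pairs (mean r 0.207, 0.141 to 0.345), so the numbers pair the states, and blocked values of state comparisons are given where they change a call.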

Additional observations from a re-analysis of the deposited data

How the results depend on the processing

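Of 1632 values of the 60 member comparisons under alternatives, 1572 kept direction and side of the threshold, 30 lost the call, 30 gained it and 0 reversed a call. The cause was not tested. Without a filter on low counts, calls were gained by Foxp3 in effector fl/+ less +/+ (-0.44), Ikzf2 in the fl/fl state change (0.46) and in resting fl/fl less fl/+ (-0.52), Ikzf3 in the mean state change (0.28), resting fl/+ less +/+ (0.44), effector fl/fl less +/+ (-0.51) and both interactions (-0.68, -0.75), and Ikzf4 in resting fl/fl less +/+ (-0.42), effector fl/fl less +/+ (-0.49) and less fl/+ (-0.55). With the replicate block, which pairs states, Ikzf2 in the fl/fl state change (0.44) and the Ikzf3 mean state change (0.30) gained a call and no other state call of a member changed. Libraries of one state and number but other genotype deviated together less closely than the state pairs (mean r 0.0774, -0.0775 to 0.296, 9 of 18 over 0.1). Libraries of other numbers had a mean r of -0.122, with 2 of 108 over 0.1. Deviations from a group mean add to 0 within the group, which pulls that mean r below 0, so it is no baseline. By the same-numbered pairs alone, the number may be shared in part between genotypes, and the main genotype tests do not account for it. With a block on it Ikzf1 in effector fl/fl less fl/+ lost its call (0.47). Ikzf3 (-0.51) and Ikzf4 (-0.50) gained a call in effector fl/fl less +/+ with the same block. DESeq2 added the Ikzf3 mean state change (0.28) and Ikzf4 in effector fl/fl less +/+ (-0.51) and less fl/+ (-0.54). On log2(FPKM + 1) and log2(FPKM + 0.1), calls were lost by Ikzf1 in effector fl/fl less fl/+ (0.47, 0.48), Ikzf2 in resting fl/fl less +/+ (-0.77, -0.79) and in effector fl/fl less fl/+ (-0.80, -0.81); the Ikzf3 mean state change gained it (0.39, 0.40), as did Ikzf4 in effector fl/fl less +/+ at a pseudocount of 1 (-0.51). Fitting only the groups compared lost Ikzf1 (0.47) and Ikzf2 (-0.79) in effector fl/fl less fl/+ and gained Ikzf3 in effector fl/fl less +/+ (-0.52). Without the libraries numbered 1, chosen after seeing the data, the +/+ state change of Ikzf3 lost its call (0.50). On counts the Ikzf4 share changed by -2.13 points and passed.

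Leaving out each library gave ranges of 0.48 to 0.58 for Ikzf1 in effector fl/fl less +/+ and 0.43 to 0.52 less fl/+; for Ikzf2 0.45 to 0.67 (+/+ state), 0.22 to 0.60 (fl/fl state), -0.86 to -0.70 (resting fl/fl less +/+), -1.15 to -0.77 (effector fl/fl less +/+) and -1.03 to -0.65 (less fl/+); for Ikzf3 0.48 to 1.11 (+/+ state), 0.18 to 0.39 (mean) and 0.16 to 0.79 (resting fl/+ less +/+); and for Ikzf4 -0.64 to -0.34 and -0.68 to -0.38 (effector fl/fl less +/+ and less fl/+). The genes called over the whole table moved as well: 299 in effector fl/fl less +/+ became 31 to 648 with a library left out and 830 without the filter, 74 in resting fl/fl less +/+ became 6 to 154 and 315, 72 in effector fl/fl less fl/+ became 3 to 310 and 488, and 674 in the fl/fl state change became 266 to 791, and 1071 with the block. With 3 libraries a group and about 3154386.5 counts in the median library, differences within the intervals given could not be told from 0.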
